A study of Cyanidioschyzon merolae strain 10D with 6 samples.

Results

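Of the 4984 annotated genes of the red alga Cyanidioschyzon merolae strain 10D, 29 were expressed interior nuclear genes with more RNA in a mutant of Polycomb Repressive Complex 2 (PRC2) than in the wild type. They were found by a fixed rule among 4241 eligible genes. An eligible gene is nuclear and lies 20 kb or more from both ends of its chromosome. It is covered by transposable element (TE) copies over less than 50% of its length, and its wild type mean is 5 CPM or more (CPM is a gene's count divided by the library's total and multiplied by 1000000). The 100 most abundant genes that meet these conditions are left out. Genes were then selected on their measured counts in the same 6 libraries. A gene was taken when its mutant mean was at least 1.5 times its wild type mean and its lowest mutant library was above its highest wild type library. The separation alone was met by 504 eligible genes (11.9%), and 300 were apart in the other direction. The whole rule was met by 0.684% of the eligible genes. Because the mutant and wild type values chose the 29 genes, those values are given as a description, and no test of the 29 genes is used as evidence.

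PRC2 is a protein complex of plants, animals, fungi and algae that methylates histone H3 at a lysine linked to gene silencing. Its catalytic subunit is the E(z) protein. Genes and repeats under the mark are typically silent or weakly transcribed, and in unicellular algae the mark is known to lie on repeats and on some genes. Cyanidioschyzon merolae is unicellular, lives in hot acidic water and has a small nuclear genome in which nearly all genes carry no intron. The annotation used here pairs the nuclear identifiers with no product name, so the 29 genes are given by identifier and no function is stated.

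Poly(A) RNA came from 3 samples of the wild type strain 10D and 3 samples of the mutant line Cme(z)-1, which the series describes as a loss of PRC2 function. All 6 samples were grown as liquid cultures in an acidic mineral medium under constant white light. The labels name 1 mutant line and do not say that the samples of a group came from separate cultures. The p-values below thus rest on the variation among these libraries only, and this variation may be technical. Any other trait of the single line cannot be told apart from the loss of PRC2. The libraries held between 7860491 and 10754544 counts, TE copies took 9.05% to 9.38% of the wild type counts and 10.1% to 11.5% of the mutant counts, and organelle genes took 0.791% to 1.13% over all libraries. The gene CMQ156C, taken as E(z) from published knowledge of this alga, was counted 1776, 1533 and 1770 times in the wild type and 0 times in each mutant library.

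Together the 29 genes made up 0.349%, 0.336% and 0.343% of the wild type counts and 0.613%, 0.666% and 0.761% of the mutant counts. The ratio of the mutant to the wild type mean was between 1.51 and 3.37, with a median of 1.83. It was 2 or more in 13 genes and lower in 16. Mutant replicate 3 was the highest mutant library for 17 of the 29 genes (58.6%), and it was also the highest for 59.3% of the other eligible genes. In the edgeR quasi-likelihood test with TMM scaling, 19 of the 29 genes had a Benjamini-Hochberg adjusted p under 0.05, where 0.637% of the eligible genes were called higher and 1.89% were called lower. All 29 genes passed the low-count filter. The rule used the same contrast, so the count of calls only describes the chosen genes and nothing is read from it. The median log2 fold change of the 29 genes was 0.82, against -0.037 over the eligible genes and -0.011 over all genes and TE copies tested.

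**Figure D1:**
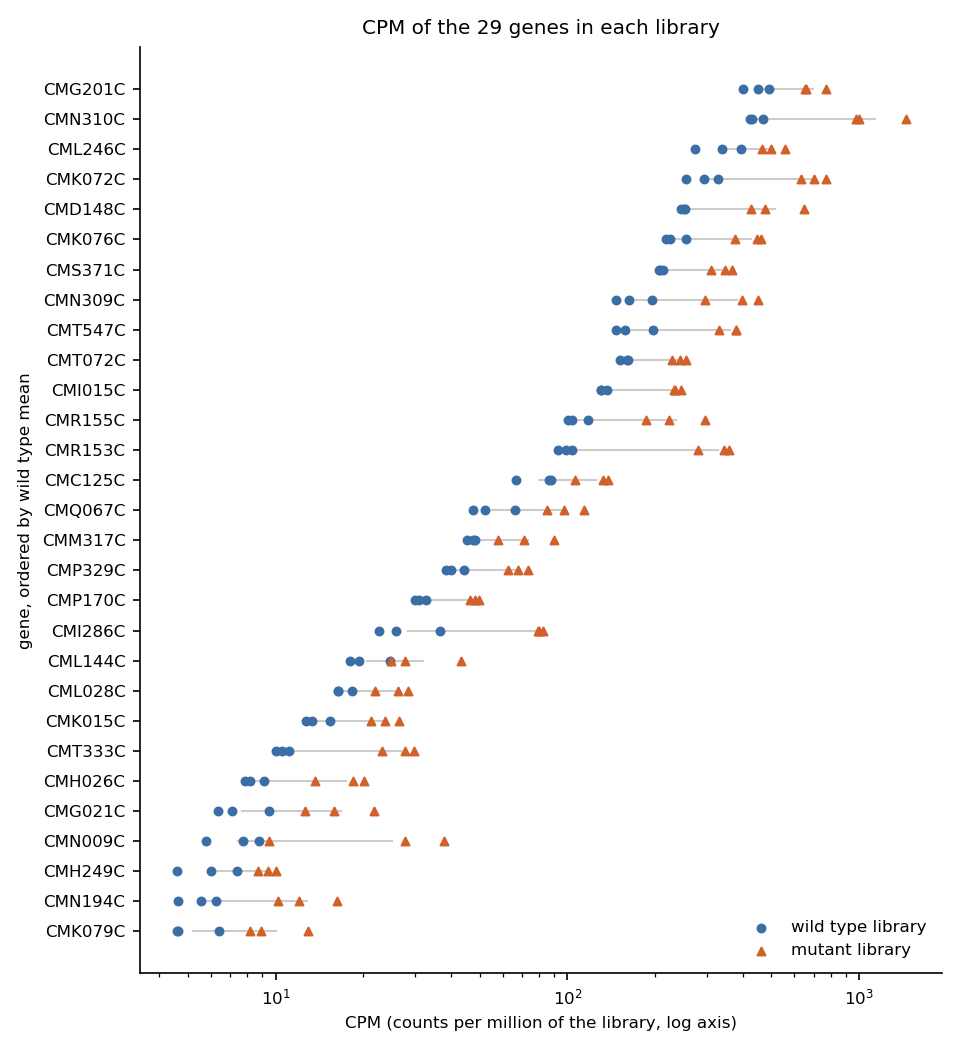
CPM of each of the 29 genes in the 3 wild type libraries (circles) and the 3 mutant libraries (triangles) on a log axis, with genes ordered by wild type mean and a grey line joining the group means. The genes run from 5.22 CPM (CMK079C) to 447 CPM (CMG201C) in the wild type mean, and no circle lies to the right of a triangle of the same gene, as the rule requires.

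CMR153C (chromosome 18, 384979 to 385942, minus strand, build ASM9120v1 here and below) had a ratio nearly as high as that of CMN009C. CMR153C had 103, 92.6 and 98.7 CPM in the wild type libraries and 281, 344 and 357 CPM in the mutant libraries. All mutant values were thus far above the wild type values, a mean of 328 ± 40.9 CPM against 98.3 ± 5.39 (SD, n = 3 each) and a ratio of 3.33. With any 1 library left out the ratio lay between 3.18 and 3.57.

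CMN009C (chromosome 14, 21573 to 22358) had the highest ratio, 3.37, and the widest spread. Its wild type values were 5.77, 8.80 and 7.76 CPM, and its mutant values were 27.8, 9.53 and 37.9 CPM. Mutant replicate 2 was barely above the highest wild type library, while the other 2 mutant libraries were over 3 times higher than any wild type library. The ratio was 4.41 without mutant replicate 2 and 2.51 without mutant replicate 3. The gene lies just inside the limit of 20 kb from a chromosome end, and edgeR did not call it.

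CMI286C (chromosome 9, 751722 to 754509) had 25.9, 36.5 and 22.6 CPM in the wild type and 82.6, 79.2 and 80.2 CPM in the mutant. Its mutant libraries were close together and its wild type libraries were not, with 80.7 ± 1.72 CPM against 28.4 ± 7.27 (n = 3 each) and a ratio of 2.84. CMT333C (chromosome 20, 840678 to 842637) was a weaker gene with 10.6, 11.1 and 10.1 CPM in the wild type and 23.2, 27.9 and 29.8 CPM in the mutant, a ratio of 2.55. It was also the gene farthest from a chromosome end, at 778980 bp.

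CMT547C (chromosome 20, 1375765 to 1380483) is a long gene of 4719 bp with wide gaps to both neighbours, 4847 bp on its start side and 4991 bp on its end side. It had 157, 147 and 196 CPM in the wild type and 330.3, 378 and 377 CPM in the mutant, a ratio of 2.17. The neighbours CMT546C and CMT548C had log2 fold changes of 0.11 and -0.028 and did not pass the edgeR test.

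A set of weakly expressed genes stood just above the limit of 5 CPM. CMN194C had 5.55, 4.64 and 6.23 CPM in the wild type and 10.2, 12.1 and 16.3 CPM in the mutant, a ratio of 2.35. CMH026C had 9.14, 8.19 and 7.89 CPM against 13.7, 18.5 and 20.1 CPM, a ratio of 2.07. In CMH249C the groups came close, at 7.40, 5.99 and 4.58 CPM in the wild type and 9.39, 8.68 and 10.0 CPM in the mutant. Of the 29 genes 11 (37.9%) had a wild type mean under 30 CPM, against 4.2% of the other eligible genes. Among these 11 genes edgeR called CMI286C, CMT333C, CMN194C and CMH026C higher and did not call the rest. Per kilobase of coding length the median wild type level of the 29 genes was 36.2 CPM per kb, against 87.6 CPM per kb in the other eligible genes. The wild type level is part of the rule, so these differences were not tested. Weak genes have few counts, such as CMK079C with 59, 38 and 36 in the wild type libraries. Whether variation between libraries carries weak genes past the fold limit more often was not tested. The shares are thus not read as a trait of genes raised in the mutant.

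**Figure D2:**
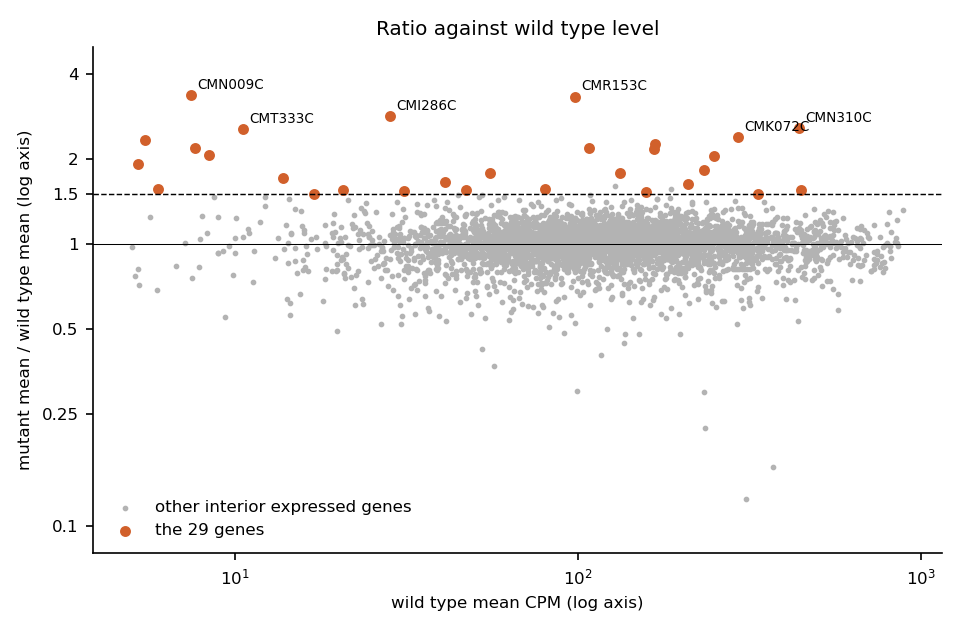
Ratio of the mutant to the wild type mean against the wild type mean CPM, both on log axes, for the 4241 eligible genes, with the 29 genes as large points and the 1.5-fold limit as a dashed line; CMQ156C, at 0 in the mutant, is not drawn. The large points lie at wild type levels from 5.22 to 447 CPM, and most small points lie near a ratio of 1.

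At the limit of 1.5 the values just inside and just outside hardly differed. Just inside were CML028C with a ratio of 1.51 (17.0 to 25.6 CPM), CML246C with 1.51 (335 to 506 CPM) and CMT072C with 1.53 (158 to 242 CPM). Just outside were CMP219C with a ratio of 1.496 (44.8 to 67.1 CPM), CMP352C with 1.49 (109 to 162 CPM) and CMO249C with 1.49 (52.6 to 78.3 CPM). CMP352C also missed the separation, with 145 CPM in mutant replicate 1 against 148 CPM in wild type replicate 3. CMG099C (ratio 1.601) and CMQ443C (ratio 1.57) passed the fold but not the separation, since their lowest mutant libraries were below their highest wild type libraries. Below the 5 CPM limit the nearest genes that met every other condition were CMR293C (4.56 to 13.0 CPM), CMR114C (4.46 to 27.1 CPM) and CMC018C (4.02 to 6.61 CPM). With CPM computed on TMM-scaled library sizes 21 of the 29 genes still met the rule, and those lost all had ratios of 1.56 or less. With each library left out in turn, 20 of the 29 met the rule every time, and the ratio of CML144C fell as low as 1.28.

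Strong expression went with both high and low ratios among the 29 genes, since CMG201C and CMN310C had similar wild type means (447 and 440.2 CPM) and ratios of 1.55 and 2.58. CMG201C had 491, 451 and 399 CPM in the wild type and 657, 654 and 772 CPM in the mutant. CML246C had 273, 338 and 395 CPM in the wild type and 463, 499 and 558 CPM in the mutant. CMM317C, the longest of the 29 genes at 5211 bp, had 48.3, 47.4 and 45.4 CPM in the wild type and 71.04, 57.8 and 90.3 CPM in the mutant, a ratio of 1.55. The mutant libraries of CMM317C were spread over a wider range than the difference between the group means.

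The genes of this paragraph are named after their values were seen and had ratios between 1.54 and 1.79. CMI015C (137, 129.9 and 130.0 CPM in the wild type, 245, 235 and 232 CPM in the mutant), CMS371C (wild type mean 209 CPM, ratio 1.63) and CMP170C (31.2 CPM, ratio 1.54) had tight libraries in both groups. CMQ067C went from 55.3 ± 9.68 to 98.7 ± 14.4 CPM, CMP329C from 40.9 ± 3.11 to 68.0 ± 5.27 and CMC125C from 80.2 ± 11.9 to 125 ± 17.1 (SD, n = 3 each). CMK015C, the only one of the 29 that overlaps a TE copy, went from 13.8 ± 1.40 to 23.8 ± 2.60 CPM, and 31.3% of its length is covered by TE_struc_28, whose own counts did not pass the test (adjusted p = 0.70 in edgeR, log2 fold change 0.22, SE 0.22).

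The 29 genes lay on 14 of the 20 nuclear chromosomes. Chromosomes 11 and 14 held 4 each, or 1.95% and 1.83% of their eligible genes, and none lay on chromosomes 1, 2, 5, 6, 10 or 15. Within 10 kb of another of the 29 genes lay 7 (24.1%), where 3.13% of the other eligible genes lay within 10 kb of one of the 29. These 7 formed a group of 3 on chromosome 11 and a pair each on chromosomes 14 and 18. The group of 3 counts CMK079C, a gene of 5.22 CPM in the wild type whose reads are uncertain, as given below. The next closest pair was 176991 bp apart.

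On chromosome 14 the adjacent genes CMN309C (757426 to 759249) and CMN310C (760552 to 762903) point the same way and are 1302 bp apart. CMN309C had 196, 146 and 162 CPM in the wild type and 296, 451 and 395 CPM in the mutant, a ratio of 2.26. CMN310C had 469.8, 429 and 421 CPM in the wild type and 996, 972 and 1441 CPM in the mutant, a ratio of 2.58. In both genes every mutant library was well above the wild type libraries, but the highest mutant library was replicate 2 for CMN309C and replicate 3 for CMN310C.

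Between these genes lies TE_homo_2835, a Gypsy-type long terminal repeat copy (759334 to 759974, minus strand), 84 bp past the end of CMN309C and 577 bp before the start of CMN310C. Gypsy elements are retrotransposons that move through an RNA copy. TE_homo_2835 was counted 699, 532 and 682 times in the wild type and rose to 3615, 4166 and 4774 counts in the mutant, or 76.0 ± 10.9 against 437 ± 88.8 CPM (n = 3 each). Mutant replicates 1, 2 and 3 had 336, 502 and 473 CPM, so replicate 2 was the highest. TE_homo_2835 rose in the edgeR test (adjusted p = 4.9e-05, log2 fold change 2.47, SE 0.17). The log2 fold changes of CMN309C and CMN310C were 1.119 and 1.301. The outer neighbours CMN308C (log2 fold change 0.14, SE 0.18, adjusted p = 0.76) and CMN311C (-0.067, SE 0.14, adjusted p = 0.87) did not pass. Since gene models hold no untranslated regions and the libraries carry no strand, reads of a gene's transcript that runs into the TE copy cannot be told apart from reads of the copy.

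On chromosome 18 CMR153C and CMR155C (387175 to 389116) also point the same way and are 1232 bp apart. CMR155C had 118, 100.5 and 104 CPM in the wild type and 187, 223 and 295 CPM in the mutant, a ratio of 2.19 against 3.33 for CMR153C. The outer neighbours CMR152C (log2 fold change 0.13, SE 0.094, adjusted p = 0.54 in edgeR) and CMR158C (0.060, SE 0.13, adjusted p = 0.87) did not pass. RefSeq places an RNA feature of type misc_RNA, CMR154T, over the whole of CMR155C (386430 to 389157), so the counts given for CMR155C could hold its reads. Such RNA features also overlap CMP329C and CMP170C, making 3 of the 29 genes, against 6.03% of the other eligible genes.

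On chromosome 11 the genes CMK072C, CMK076C and CMK079C lie in 1 stretch with other genes between them. CMK072C (214646 to 215215), the shortest of the 29 at 570 bp, had 329, 294 and 255 CPM in the wild type and 634, 697 and 767 CPM in the mutant, a ratio of 2.39. CMK076C (219237 to 221364) had 225, 218 and 255 CPM in the wild type and 375, 461 and 446 CPM in the mutant, a ratio of 1.83. CMK079C (225675 to 226848) was far weaker, at 6.42, 4.64 and 4.58 CPM in the wild type and 8.18, 12.9 and 8.92 CPM in the mutant. Its end lies 45 bp from the end of CMK078C, which had means of 181 CPM in the wild type and 188 CPM in the mutant. Without strand or untranslated regions, reads of a CMK078C transcript that runs on cannot be told apart from reads of CMK079C. CMK079C did not pass the edgeR test (adjusted p = 0.15) and did not meet the rule without wild type replicate 1. The 4 genes between CMK072C, CMK076C and CMK079C were CMK073C, CMK074C, CMK075C and CMK078C. They had log2 fold changes of 0.18, -0.028, -0.041 and -0.0036, and none passed the edgeR test.

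**Figure D3:**
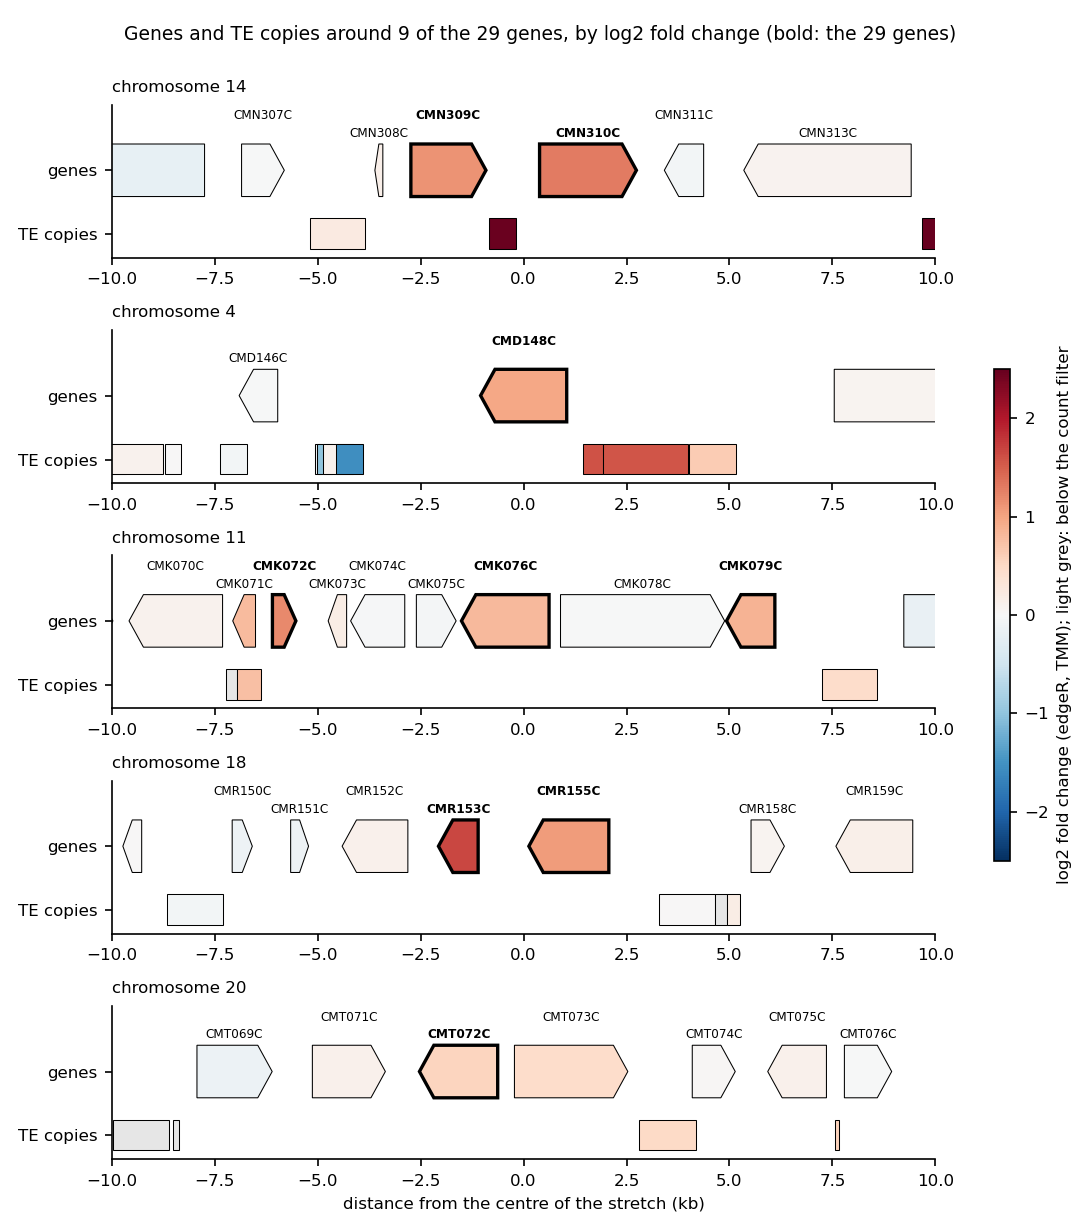
Annotated genes (arrows pointing in the direction of transcription) and TE copies (boxes) around 9 of the 29 genes, drawn to scale against the distance in kb from the centre of each stretch and coloured by edgeR log2 fold change; thick outlines mark the 29 genes and light grey marks features below the count filter. TE_homo_2835 between CMN309C and CMN310C (2.47) and the TE copies on the start side of CMD148C (1.59 and 1.58) are darker than the genes beside them, and most other neighbours are near 0.

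CMD148C (chromosome 4, 386616 to 388707, minus strand) had the widest gap to the next gene on its start side, 6498 bp. It had 245.4, 252.6 and 251.8 CPM in the wild type and 426, 474 and 645 CPM in the mutant, a ratio of 2.06. A pair of Gypsy-type TE copies on its start side also rose. TE_homo_535 (389092 to 389585, 384 bp from the gene) went from 127 ± 14.9 to 398 ± 84.9 CPM (n = 3 each; log2 fold change 1.59, SE 0.15, adjusted p = 3.5e-04 in edgeR). TE_homo_536 (389589 to 391655) had 52.6 ± 4.29 against 165 ± 39.5 CPM (1.58, SE 0.15, adjusted p = 4.0e-04). For the gene and both copies mutant replicate 3 was the highest library. TE_homo_535 had 496 CPM there, against 339 in mutant replicate 1 and 359 in mutant replicate 2. Mutant replicate 3 was also the highest mutant library for 59.3% of the other eligible genes. The neighbouring genes CMD146C (log2 fold change -0.016) and CMD151C (0.064) did not pass.

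Over all 29 genes, 31 TE copies lay within 1 kb of the coding ends, at 18 of the genes. A TE copy thus lay within 1 kb of 62.1% of the 29 genes and of 60.5% of the other eligible genes. By superfamily 8 of the 31 were Copia, 7 Gypsy and 6 Harbinger. Of the 31 copies 18 had enough counts to be tested, and 3 were called higher, where 5.43% of the tested interior TE copies were called higher. None was called lower, where 1.07% of the interior copies were, and none had an unadjusted p under 0.05 in that direction with edgeR, while DESeq2 and limma voom also called 0. Of the 18 tested copies 15 had a log2 fold change above 0 and the median was 0.50, against 0.049 over the interior copies. The median was 0.62 within 500 bp, 0.36 within 2000 bp and 0.11 within 10 kb of the 29 genes. These copies lie beside genes chosen for being higher. Without strand or untranslated regions, reads of the genes' own transcripts cannot be told apart from reads of the copies. DESeq2 and limma voom called 4 of the 18 higher. The 3 raised copies are TE_homo_2835, shared by CMN309C and CMN310C, and TE_homo_535 and TE_homo_536, both beside CMD148C. Thus 3 of the 29 genes (10.3%) had a raised TE copy within 1 kb, against 3.02% of the other eligible genes. The 3 genes are not separate cases, since CMN309C and CMN310C count the same copy. Of the 29 genes 15 had a tested copy within that distance. These shares were not tested. Within 10 kb the share with a raised TE copy was 20.7%, against 15.4% of the other eligible genes.

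Few of the genes next to the 29 passed the test. The nearest annotated gene on each side, with the 29 themselves left out, gave 53 genes, of which 52 were tested. Their median log2 fold change was 0.062, against -0.036 over all nuclear genes tested. In edgeR 2 of the 52 rose and none was called lower. Of all nuclear genes tested, the 29 included, 1.3% were called higher and 1.86% lower. Of the eligible genes other than the 29, 0.19% were called higher and 1.9% lower. Not every neighbour is eligible, and CMK071C is not, because TE copies cover 98.2% of it. Whether the neighbours differ from these shares was not tested. With edgeR 3 of the neighbours were lower at an unadjusted p under 0.05, DESeq2 called 1 lower and limma voom called 0. Of the 29 genes 23 had on both sides a gene that was neither called nor one of the 29.

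Both raised neighbours stand head to head with one of the 29 genes, so that the pair is read outwards from a shared gap. CMK071C (chromosome 11, 213682 to 214234) lies 411 bp from the start of CMK072C. It had 222, 182 and 252.8 CPM in the wild type and 336, 446 and 392 CPM in the mutant (adjusted p = 0.015, log2 fold change 0.78, SE 0.15), and it was not called without wild type replicate 1 (adjusted p = 0.071). CMK071C is covered by TE copies over 98.2% of its length, so its reads and those of the repeats cannot be told apart. CMT073C (chromosome 20, 186167 to 188920) lies 407 bp from the start of CMT072C. It had 128, 145 and 156 CPM in the wild type and 211, 191 and 212 CPM in the mutant (log2 fold change 0.46, SE 0.10, adjusted p = 0.037). This call was lost with any 1 library left out, with adjusted p between 0.054 and 0.18.

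CMT072C itself (chromosome 20, 183860 to 185759) had 161, 159 and 152 CPM in the wild type and 243, 254 and 228 CPM in the mutant. In all, 17 of the 29 genes (58.6%) have a head to head neighbour on the start side, against 65.5% of the other eligible genes. The gap was under 500 bp for 4 of the 17 neighbours, and 2 of these 4 are the raised ones. The other pair of such neighbours, CMK078C beside CMK076C at 278 bp and CMN195C beside CMN194C at 478 bp, had log2 fold changes of -0.0036 and 0.13 and did not pass. The median log2 fold change of all head to head neighbours was 0.064 (17 genes). Neighbours standing tail to tail had a median of -1.3e-05 (17 genes) and those on the same strand a median of 0.058 (17 tested), with no call in either of these 2 sets. Whether the orientations differ was not tested.

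**Figure D4:**
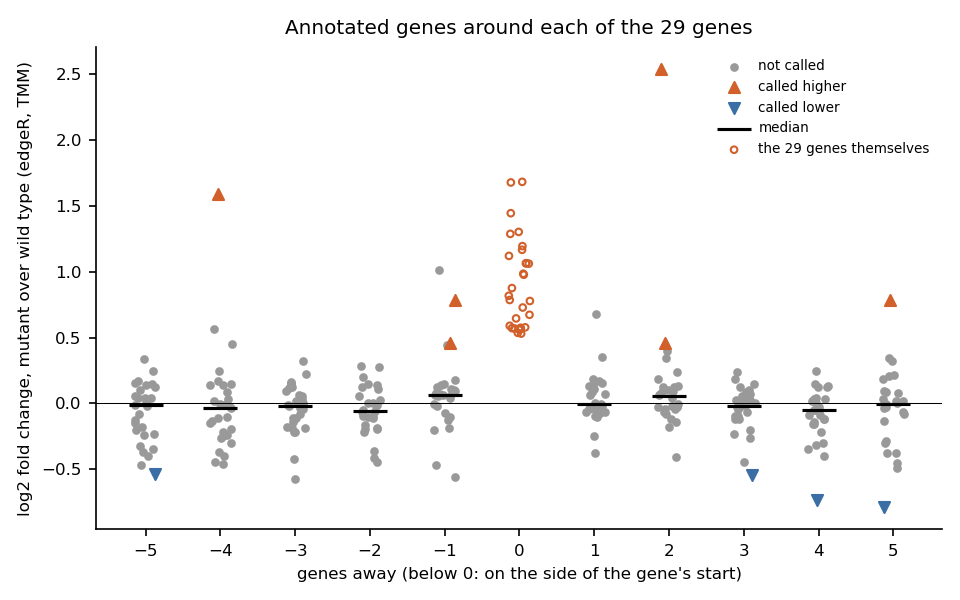
Log2 fold change (edgeR, TMM) of the annotated genes 1 to 5 places away from each of the 29 genes, with places below 0 on the side of the gene's start; black bars are medians, triangles are called genes and open circles at 0 are the 29 genes themselves. The medians stay near 0 at every place. Among called genes CMK071C (0.78) and CMT073C (0.46) are next to a gene's start, CMG018C (2.54) and CMQ070C (0.46) are 2 places away on the end side, and the genes called lower are 3 to 5 places away.

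In edgeR, of the 55 tested genes 2 places away 2 rose, beside the 1.3% of nuclear genes called higher and the 1.86% called lower. Of the 55 tested 3 places away 1 fell, of the 56 tested 4 places away 1 rose (log2 fold change 1.59) and 1 fell, and of the 56 tested 5 places away 1 rose and 2 fell. The raised gene 5 places away is CMK071C again, counted from CMK076C. CMG018C (chromosome 7, 49584 to 51291), near CMG021C, went from 2.49 ± 0.888 to 15.2 ± 1.86 CPM (n = 3 each; log2 fold change 2.54, SE 0.31, adjusted p = 0.0019 in edgeR). CMQ070C (chromosome 17, 158744 to 160345), near CMQ067C, went from 86.3 ± 6.33 to 124 ± 5.57 CPM (0.46, SE 0.090, adjusted p = 0.019), and lost its call without wild type replicate 1, wild type replicate 2 or mutant replicate 1 (adjusted p between 0.064 and 0.14).

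CMG021C (chromosome 7, 56342 to 58382) lies in a weakly expressed stretch. It had 7.07, 9.53 and 6.36 CPM in the wild type and 12.6, 21.7 and 15.9 CPM in the mutant, a ratio of 2.19. CMG022C lies inside it on the opposite strand and went from 1.67 ± 0.569 to 3.56 ± 1.34 CPM without passing the test (log2 fold change 1.01, SE 0.43, adjusted p = 0.26). Without strand the reads of these overlapping genes cannot be told apart. CMG019C, on the other side, had 1.42 and 2.42 CPM (0.68, SE 0.51, adjusted p = 0.56).

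The counts given for CML144C belong to an uncertain gene. The deposited annotation places it at 353739 to 354890 of chromosome 12, inside the far longer gene CML142C (336951 to 355013) and on the same strand. RefSeq, on the same build, places CML144C at 357781 to 358935, outside CML142C. At the deposited position it had 24.6, 17.97 and 19.3 CPM in the wild type and 24.8, 43.3 and 27.8 CPM in the mutant, so that mutant replicate 1 was nearly equal to wild type replicate 1. CML142C went from 136 ± 5.12 to 193 ± 36.6 CPM without passing (adjusted p = 0.12, log2 fold change 0.44, SE 0.14). The remaining genes lay within 114 bp of their RefSeq positions, and 25 of the 29 within 1 bp. Of 4232 eligible genes that RefSeq lists, 57 were placed more than 500 bp apart.

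The coding length of the 29 genes had a median of 1878 bp (570 to 5211), against 1293 bp in the other eligible genes. The lower and upper quartiles were 1174 and 2128 bp for the 29 genes and 841 and 1954.5 bp for the others. Lengths from 1500 to 2500 bp were held by 15 of the 29 (51.7%) and by 26.6% of the others. This window holds the median of the 29 genes but not that of the others, so the contrast in it depends on the choice of window. The median distance to the nearest chromosome end was 148974 bp for the 29 genes and 221494 bp for the others. Within 100 kb of an end lay 13 of the 29 (44.8%) against 19.3% of the others, and within 60 kb 7 (24.1%) against 9.47%. The gap to the next gene had a median of 2138 bp on the start side and 1232 bp on the end side, against 1780 and 1208 bp. These are descriptions of 29 genes and were not tested.

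**Figure D5:**
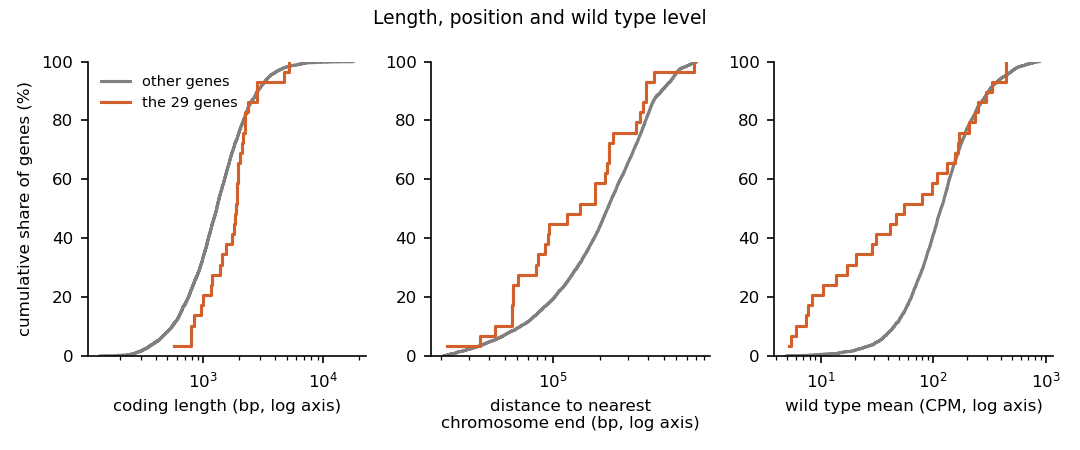
Cumulative share of genes (%) against coding length in bp, distance to the nearest chromosome end in bp and wild type mean CPM, each on a log axis, for the 29 genes and for the other 4212 eligible genes. The curve of the 29 genes runs to the right for length (median 1878 against 1293 bp) and to the left for the distance to an end and for the wild type level.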

How the data were processed

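Poly(A) RNA libraries without strand information were prepared from 3 wild type and 3 mutant samples, per the labels' protocols. The authors deposited whole-number counts per gene and TE copy, and nothing was normalized. Per the submitters' processing notes the tools included STAR and Trim Galore (no version given), and the counting program is not given in the sources used here. How reads that match several places were counted is not known either, and the counts of single TE copies may depend on it. Positions are those of the deposited annotation (build ASM9120v1, per the file headers), whose gene models hold no untranslated regions, so that lengths are coding lengths. CPM is the count divided by the library total and multiplied by 1000000.

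The test was edgeR 4.0.16 (R 4.3.3) with TMM scaling, quasi-likelihood, a filter by expression (minimum count 10, minimum total 15) and Benjamini-Hochberg adjustment over all 7641 genes and TE copies together. Calls have an adjusted p under 0.05. DESeq2 1.42.0 and limma 3.58.1 (voom), other scalings, no filter, a replicate block and libraries left out in turn were alternatives.

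The 29 genes and all lists were chosen with earlier results of these data known. The genes named are the 12 of highest ratio, the 5 of highest wild type mean, adjacent members, the shortest and longest, those next to the limits, and neighbours and TE copies that were called; others were named after their values were seen. Gene lists by product could not be formed, because the tables used pair the nuclear identifiers with no product. Total counts of 7860491 to 10754544 set the precision, and a gene at 5 CPM has few counts.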

Additional observations from a re-analysis of the deposited data

How the results depend on the processing

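The rule found 29 genes as reported, 13 with a 2-fold limit, and 28 to 45 with each library left out in turn (45 without wild type replicate 2 and 44 without wild type replicate 3). Of the 29 genes, which were chosen on the same contrast so that nothing is read from these counts, 19 were called higher, 16 with the replicate block and 12 to 18 with each library left out (12 without wild type replicate 1). Of the neighbours 2 were called higher, against 1 with the replicate block, 4 over the 2 nearest genes on each side and 0 to 2 with each library left out (0 without wild type replicate 1). None was called lower, against 1 with DESeq2 and 0 to 1 with each library left out (1 without wild type replicate 2). The 2 nearest genes on each side are a larger set than the nearest alone, so the count of 4 is on another base. With a library left out the separation part of the rule is easier to meet, while the ratio can move either way. Beyond this, the cause of the changes was not tested. The counts of TE copies within 1 kb kept within 1.5 times the reported count under every alternative run. The 377 alternative log2 fold changes of the 29 genes ran from 0.27 to 2.06; their direction was set by the choice of genes with groups that do not overlap and is no sign of stability. Of 91 alternative values of called neighbours and TE copies none changed direction and 11 calls were lost, all of CMK071C, CMT073C or CMQ070C. Same-numbered samples correlated at 0.022, 0.135 and 0.259 in their deviations from the group means. Differently numbered samples correlated at 0.142 (wild type replicate 2 with mutant replicate 1) and at -0.264 to -0.001 in the other 5 pairs. The numbers were not taken as pairs, since not every same-numbered pair was above 0.1. Genes near 5 CPM have the fewest counts, and the depth limits what can be seen there.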
